A study of Mus musculus with 3 samples.

Results

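Retinoic acid is made from vitamin A and acts through nuclear receptors, and 9 genes of its synthesis, binding, reception and breakdown were followed here: Aldh1a1, Aldh1a2, Aldh1a3, Rara, Rarb, Rarg, Crabp1, Crabp2 and Cyp26b1. They were chosen by name. A gene counted as measured where at least 1 oligo with a value on every array carried its symbol and no other. Symbols were those of the platform annotation. Of the 9 genes 8 were measured, by 18 oligos, among 19635 genes tested. Cyp26b1 was the member without such an oligo and was not analysed here. All 18 oligos had a value on every array because this was required.

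Retinol is carried into cells, oxidised to retinal by alcohol and retinol dehydrogenases, and oxidised again to retinoic acid by the aldehyde dehydrogenases of the Aldh1a family. Cellular retinoic acid-binding proteins (Crabp) hold the acid in the cytoplasm, receptors of the RAR family bind it in the nucleus as partners of RXR proteins, and Cyp26 enzymes degrade it. In the developing kidney the stromal cells are a known source of retinoic acid, which maintains Ret, the receptor of the ureteric bud tip, and so supports branching of the bud.

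The samples were 3 arrays with 2 colours, and each compared kidney at 13.5 dpc (days post coitum) in channel 1 directly with metanephric mesenchyme at 10.5 dpc in channel 2. Both tissues were microdissected from normal embryos of the CD1 mouse strain. Males and females were pooled, and the RNA went through amplification before labelling; no transgene or treatment is named. The labels do not say whether the arrays came from separate dissections, so part of the spread of these arrays may be technical. Each p-value reflects that spread, and the limma test draws the spread of a gene towards that of all genes. Each oligo has 1 log2 ratio per array. The sources used here name neither the numerator nor the dye of each RNA, so a value is called positive or negative as deposited, and neither sign is read as the kidney. Ratios give no level of a gene in either tissue, and presence of a marker in one of them could not be checked.

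Over all genes the arrays differed in how well they matched: arrays 1 and 2 correlated at r = 0.46 across 19635 genes, arrays 1 and 3 at 0.17 and arrays 2 and 3 at 0.16. Over the 18 oligos of the members these values were 0.73, 0.047 and -0.22, and oligos of one gene share their target. The number of arrays limits the precision, and the median standard error of a gene's mean was 0.19 on the log2 scale.

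Retinoic acid receptors recognise a direct repeat of a short sequence, and the version with a spacer of 5 bases (DR5) controls several genes that retinoic acid itself induces. The letters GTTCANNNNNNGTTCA, the core of such a repeat, were searched on both strands in the 250 bases before each RefSeq gene start (build GRCm38.p6). They were present in 22 of 32851 windows, or 0.067%. Windows were listed for 7 of the 9 members (12 windows), all but Aldh1a3 and Crabp2, and 1 of these windows held the letters, that of Rarb. Among the other pathway genes described below, Cyp26a1 held them too. The stretches of 130 bases that end at the start of each gene are shown because these genes, a receptor and an enzyme of breakdown, are the textbook targets through which the pathway reads its own signal; capitals mark the match. The Rarb stretch lies at chr14:16575477-16575606 on the minus strand, and its match begins 52 bases before the start. That of Cyp26a1 lies at chr19:37697678-37697807 on the plus strand, and its match, on the opposite strand, begins 32 bases before the start.
Rarb: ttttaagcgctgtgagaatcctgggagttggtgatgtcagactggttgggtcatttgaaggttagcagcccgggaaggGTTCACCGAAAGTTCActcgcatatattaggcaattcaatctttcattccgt
Cyp26a1: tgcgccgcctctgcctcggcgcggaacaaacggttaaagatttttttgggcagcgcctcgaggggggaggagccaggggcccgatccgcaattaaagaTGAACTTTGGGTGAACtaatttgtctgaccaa
A match is a description of the letters and does not show binding.

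Among the members, Crabp2 stood apart on the negative side and the others lay near 0 or on the positive side. On the log2 scale the means ran, from the lowest, Crabp2 at -0.97, Rara at -0.036, Aldh1a2 at 0.12, Rarb at 0.12, Rarg at 0.13, Crabp1 at 0.39, Aldh1a1 at 0.43 and Aldh1a3 at 0.53. The gap between the means of Crabp2 and Rara, 0.93, and that between Rarg and Crabp1, 0.26, were wider than the SD over the 3 arrays of either gene. The other 5 pairs of neighbours lay closer together than the larger of their SDs. The ratios compare each gene with itself, so the order is one of differences between tissues, not of levels. In whole tissue, fewer cells of a type and less RNA per cell cannot be told apart.

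With p-values adjusted across all 19635 genes, 0 members passed (limma with Benjamini-Hochberg, from 0.11 for Crabp2 to 0.94 for Rara). Over all genes 1 passed (0.00509%), on the negative side, and 0 passed with centred and scaled arrays. The gene with the lowest mean lay at the lowest deposited ratio, 0.01, on all 3 arrays, and so had no spread. Whether that gene was the passing one was not tested, so the count of 1 gives no background for the members. At an unadjusted limma p under 0.05 there were 2 of the 8, Crabp2 and Aldh1a3, against a background of 16.8% of all genes. All 3 arrays had the same sign for 4 of the 8, against 41.3% of all genes: Crabp1, Aldh1a3 and Rarg were positive (21.5% of all genes) and Crabp2 negative (19.9%). Of the 8 means 6 were above 0, against 50.3% of all genes. With 8 genes these shares lie near the background. The median of the members was 0.12, or 0.22 without array 3, and that of all genes 0.0020.

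**Figure D1:**
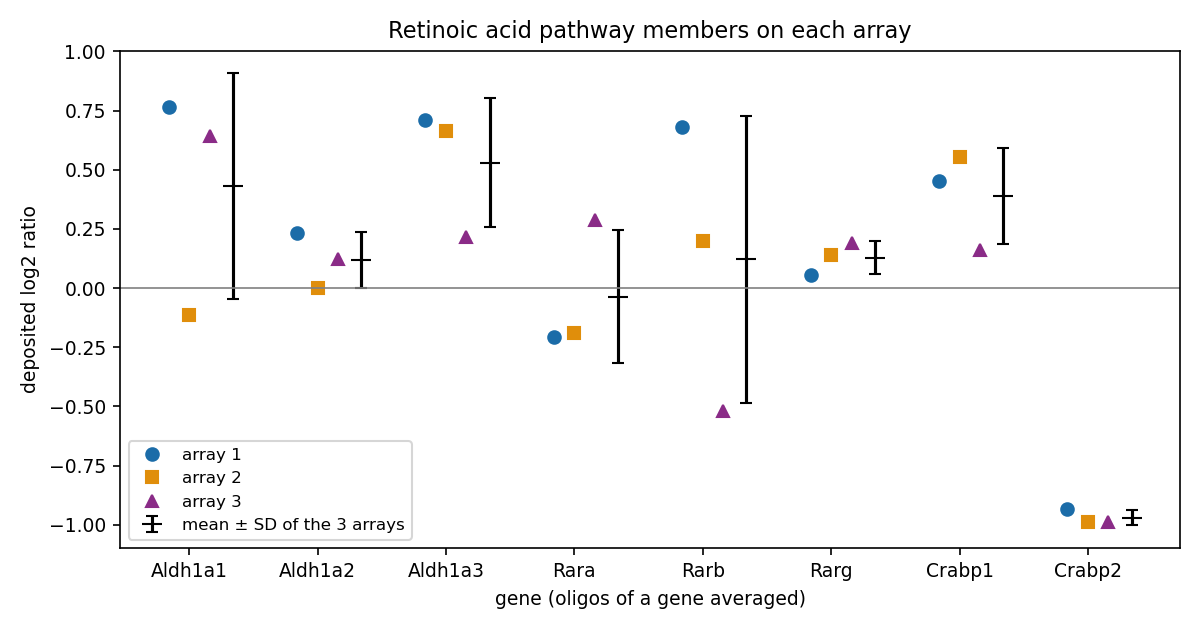
Deposited log2 ratio of each measured member (x axis) on arrays 1, 2 and 3 (symbols), with the mean and SD of the 3 arrays (black). Crabp2 lies between -0.99 and -0.93 on all 3 arrays, below every value of the other members, and Rarb runs from 0.68 on array 1 to -0.52 on array 3.

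**Figure D2:**
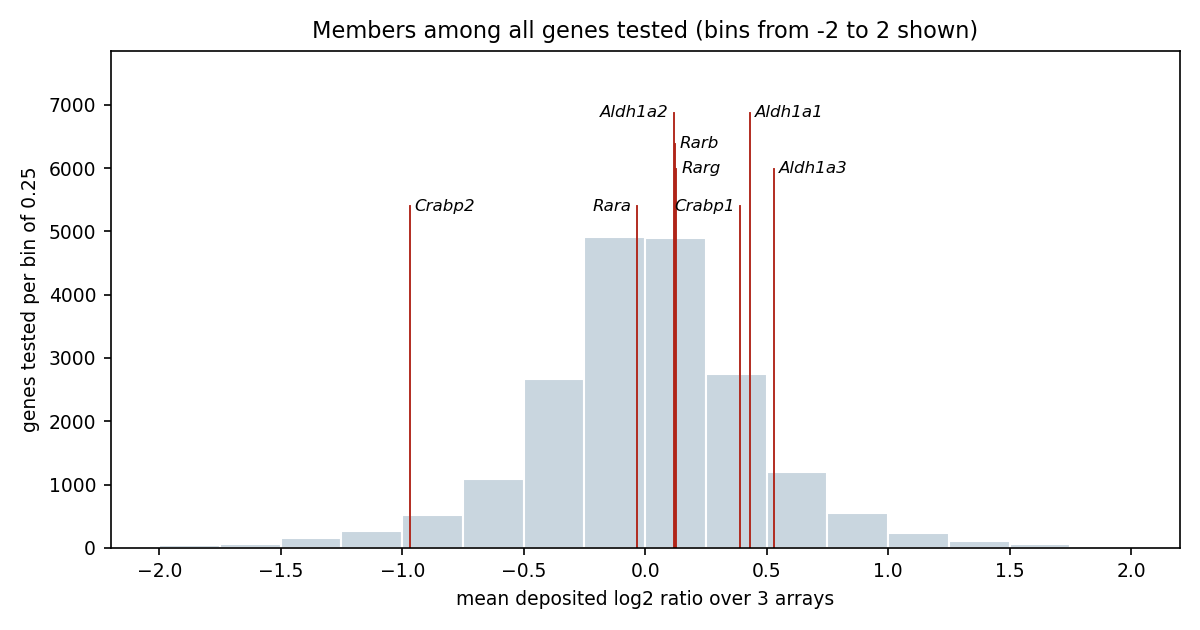
Number of genes tested (y axis) by mean log2 ratio over the 3 arrays, in bins of 0.25 between -2 and 2, with the mean of each measured member as a red line. Crabp2, at -0.97, lies in the left tail and the other members lie between -0.036 and 0.53, in the body of the distribution.

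The enzymes that make retinoic acid were on the positive side in their means. Aldh1a3, a retinal dehydrogenase of the ureteric bud and of several embryonic epithelia, had 0.71, 0.66 and 0.22 on arrays 1, 2 and 3. Its 3 values are all positive, with array 3 the lowest. The mean was 0.53 ± 0.27 (SD, n = 3), a 1.44-fold difference with a 95% limma interval of 0.055 to 1.00 on the log2 scale (unadjusted p = 0.036, limma adjusted p = 0.26). By mean, 89.8% of all genes lay below it.

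Aldh1a1, a retinal dehydrogenase that is abundant in several adult and fetal epithelia, had 0.76, -0.11 and 0.64. Arrays 1 and 3 were high and array 2 lay just below 0, so the sign was mixed. The mean was 0.43 ± 0.48 (95% limma interval -0.19 to 1.06; limma adjusted p = 0.43), and it was 0.27 without array 1 and 0.70 without array 2.

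Aldh1a2, the main source of retinoic acid in the early embryo and the enzyme of the renal stroma, had 0.23, -0.0014 and 0.12. All 3 values were close to 0. The mean was 0.12 ± 0.12 (limma adjusted p = 0.73), and its 95% limma interval of -0.28 to 0.52 spans 0. Without array 1 the mean was 0.060, and without array 2 it was 0.18. The renal stroma list itself lay on the positive side, with 10 of 12 measured genes above 0, a median of 0.74 and a range from -0.34 to 2.15. Mesothelium, the other tissue known for Aldh1a2, had 3 of 6 measured genes above 0, a median of 0.013 and a range from -1.03 to 1.84. Upk3b and Lrrn4 of that list were not measured.

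Each receptor gene is a nuclear receptor that binds retinoic acid, and each was covered by more than 1 oligo. Averaged over oligos, their means lay near 0, and the oligos of a gene did not share a sign. Of the 13 receptor oligos, 10 had arrays of both signs, 3 were positive on every array and 0 were negative on every array. Over all 21094 oligos tested, 58.7% had both signs. At an unadjusted limma p under 0.05 there was 1 of the 13, against 16.6% of all oligos, and 0 passed after adjustment over all oligos. Each oligo was made to a different sequence record of its gene. The sources used here do not say which transcript form each oligo reads.

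Rara, the most widely expressed of the 3 receptors in embryos, had -0.21, -0.19 and 0.29 when its 6 oligos were averaged. Arrays 1 and 2 lay below 0 and array 3 above. The mean was -0.036 ± 0.28, and its sign turned without array 1 (0.050) or array 2 (0.041), while without array 3 it was -0.20.

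The oligos of Rara ranged in their means from -0.61 to 0.35, with 3 on each side. Oligo 3007063 had -0.94, -0.93 and 0.048, with arrays 1 and 2 nearly equal and array 3 near 0. Oligo 3007062 had -0.76, -1.12 and 1.75, so array 3 lay farther above 0 than arrays 1 and 2 lay below it. Oligo 3000823 was the only one of the 6 with a single sign, at 0.16, 0.29 and 0.60. The gap between the lowest and the highest mean, 0.96, may be set beside a median gap of 1.20 (quartiles 0.94 and 1.82) over the 24 genes with at least 5 oligos.

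Rarb, whose RNA retinoic acid induces through the repeat shown above, had 0.68, 0.20 and -0.52 as the average of 2 oligos. Array 1 was the highest and array 3 lay on the other side. Both oligos showed this order, with 0.42, 0.0086 and -0.74 for oligo 3000826 and 0.95, 0.39 and -0.30 for oligo 3000828. The mean was 0.12 ± 0.61 (95% limma interval -0.62 to 0.86; limma adjusted p = 0.86), and it was -0.16 without array 1 and 0.44 without array 3. The SD of Rarb was larger than that of 78.3% of all genes.

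Rarg, a receptor of mesenchyme and of forming cartilage and skin, had 0.053, 0.14 and 0.19 as the average of 5 oligos. The 3 arrays were close together and all just above 0. The mean was 0.13 ± 0.069 (95% limma interval -0.26 to 0.52; limma adjusted p = 0.70).

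This small spread hides oligos that differed. Oligo 3007102 had 1.23, 0.30 and 0.64, all positive, with a mean of 0.72 ± 0.47 (unadjusted p = 0.032, limma adjusted p = 0.26 over all oligos). Oligo 3007103 had -0.47, -0.30 and 0.036, with a mean of -0.25. The other means were 0.16, 0.012 and -0.0065. The gap between the lowest and the highest mean was 0.97, close to that of Rara.

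**Figure D3:**
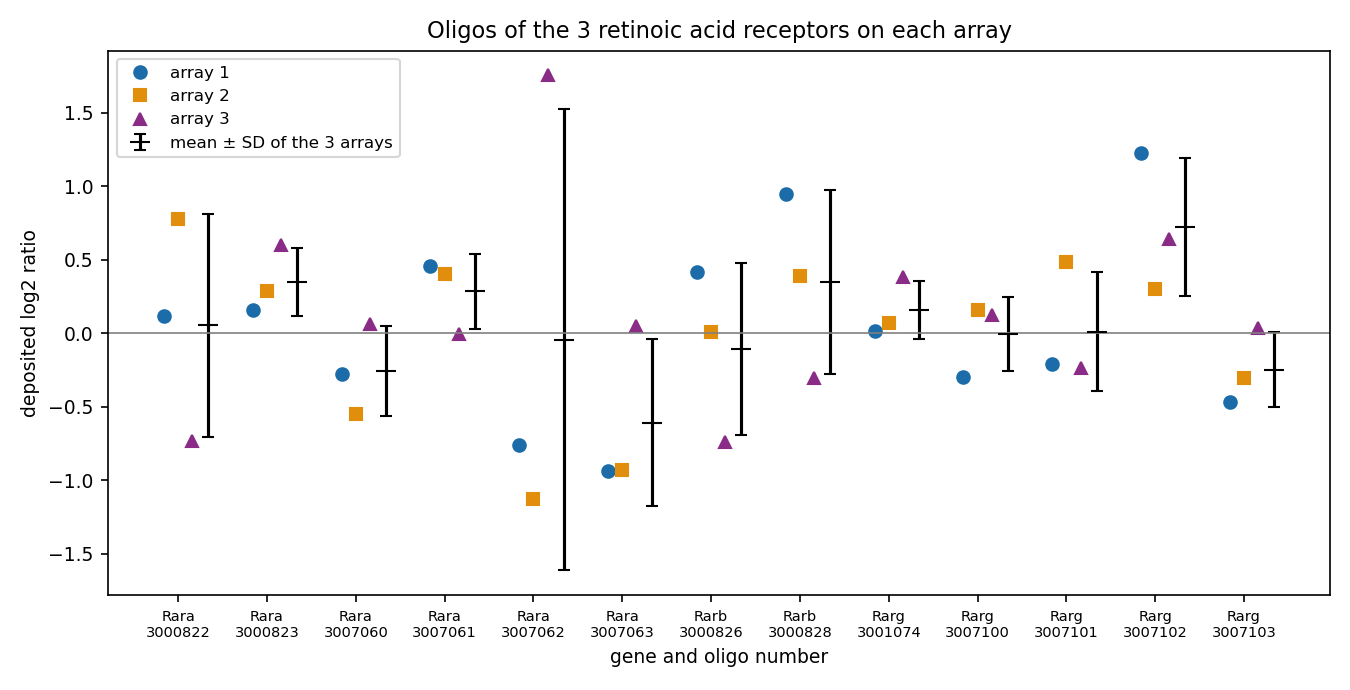
Deposited log2 ratio of the 13 oligos of Rara, Rarb and Rarg (x axis: gene and oligo number) on arrays 1, 2 and 3 (symbols), with the mean and SD of the 3 arrays (black). Oligos of a gene lie on both sides of 0, and the widest spread is that of Rara oligo 3007062, from -1.12 on array 2 to 1.75 on array 3.

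The means of the binding proteins had opposite signs, though the interval of Crabp1 spans 0. Crabp2, which passes retinoic acid to its receptors in the nucleus, had -0.93, -0.99 and -0.99. All 3 arrays were on the negative side and nearly equal. The mean was -0.97 ± 0.032 (SD, n = 3), a 1.96-fold difference with a 95% limma interval of -1.35 to -0.59 (unadjusted p = 0.0017, limma adjusted p = 0.11). By mean, 3.18% of all genes lay below it, and 1.01% had a smaller SD. For Crabp2 the limma standard error, 0.14, came mostly from the spread of all genes. Over the alternatives its adjusted p ran from 0.077 to 0.51 and its mean from -0.99 to -0.96.

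Crabp1, which holds retinoic acid in the cytoplasm and is linked to its breakdown, had 0.45, 0.55 and 0.16. All 3 values were positive, with array 3 the lowest. The mean was 0.39 ± 0.20, a 1.31-fold difference with a 95% limma interval of -0.046 to 0.83 (unadjusted p = 0.069, limma adjusted p = 0.34).

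Both binding proteins are known from limb and body wall mesenchyme and from the nervous system of the embryo. Limb and body wall genes had 7 of 9 means below 0, a median of -0.64 and a range from -1.57 to 0.12. Neural and neural crest genes had 5 of 8 below 0, a median of -0.33 and a range from -1.71 to 1.01. Crabp2 lay on the same side as these medians and Crabp1 on the other. Medians were negative too for somite and muscle (-0.56), red cell (-0.91), gut and liver (-0.71) and gonad and adrenal genes (-0.046). The other marker lists had positive medians. The part of any list in the values of Crabp1 and Crabp2 was not tested.

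Paralogous members were compared on the same array, as the difference of their log2 ratios, in 7 pairs. Crabp1 exceeded Crabp2 by 1.39, 1.54 and 1.15 on arrays 1, 2 and 3, a mean of 1.36 ± 0.20. All 3 arrays agree in sign and the mean is several times the SD, and the exact sign-flip test (two-sided) gave p = 0.25, the smallest that 3 arrays can give (0.875 adjusted over the 7 pairs). Aldh1a2 lay below Aldh1a3 on each array, with differences of -0.47, -0.67 and -0.095 and a mean of -0.41 ± 0.29 (exact p = 0.25, adjusted 0.875).

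The remaining 5 pairs had differences of both signs. Aldh1a1 minus Aldh1a2 had a mean of 0.31 ± 0.37 (0.21 without array 1, 0.53 without array 2 and 0.21 without array 3), and Aldh1a1 minus Aldh1a3 one of -0.098 ± 0.62, which without array 2 was 0.24. Among the receptors, Rara minus Rarb was -0.16 ± 0.87, or 0.21 without array 1. Rara minus Rarg was -0.16 ± 0.23, or -0.081 without array 2 and -0.29 without array 3. Rarb minus Rarg was -0.0071 ± 0.67, or 0.34 without array 3. These spreads leave the order of the receptors unresolved.

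**Figure D4:**
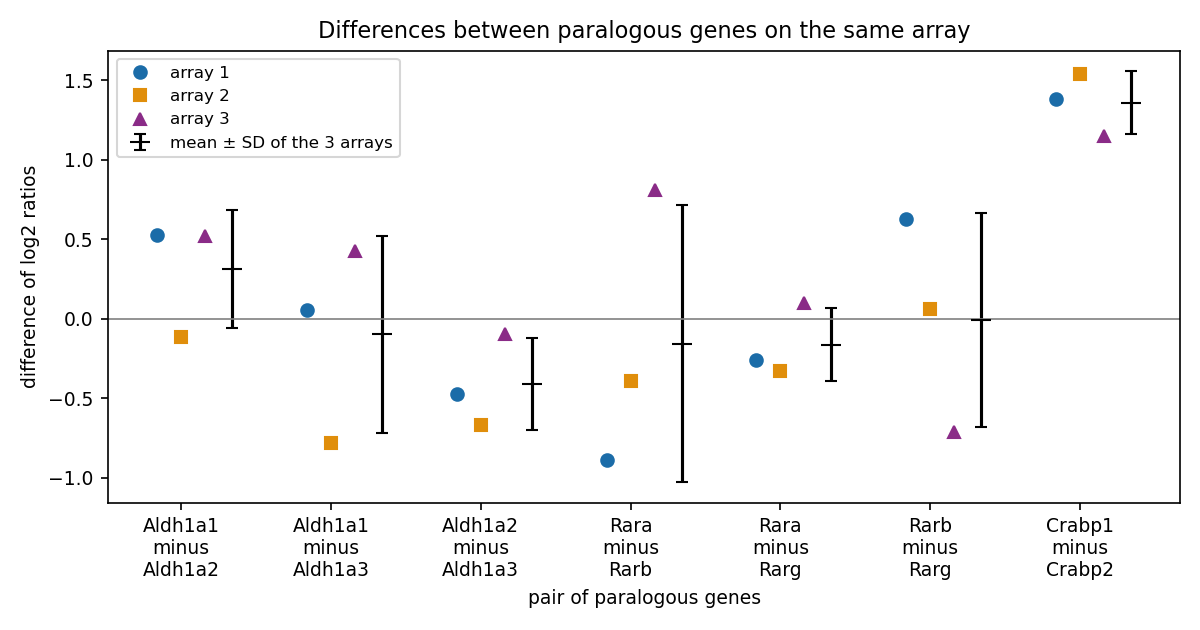
Difference of the log2 ratios of paralogous genes on the same array (y axis) for 7 pairs (x axis), with arrays 1, 2 and 3 as symbols and the mean and SD in black. Crabp1 minus Crabp2 lies between 1.15 and 1.54, above all values of the other pairs.

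For the breakdown of retinoic acid, Cyp26a1 was the enzyme measured. It had -0.12, -0.64 and -0.19, all negative, with array 2 the lowest. The mean was -0.32 ± 0.28 (95% limma interval -0.80 to 0.16; limma adjusted p = 0.45), and -0.16 without array 2. Rarb, which holds the same repeat, had arrays of both signs. No order between these genes can be read from the repeat.

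Of 68 other genes listed for the pathway, 54 were measured. At an unadjusted limma p under 0.05 there were 6 on the positive side (8.99% of all genes) and 4 on the negative side (7.83%), and 0 passed over all genes (limma adjusted p from 0.11 to 0.28 for these 10). The median of the 54 was -0.031, a value whose sign turned without array 1 or array 2.

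In retinol supply and storage 5 of 9 means were positive, with a median of 0.094 and a range from -2.24 to 0.73. Ttr, transthyretin, which travels with the retinol carrier in blood, had -3.38, -1.81 and -1.54, with array 1 the lowest. The mean was -2.24 ± 1.00. Rbp4, the retinol carrier secreted by liver and yolk sac, had -1.20, -0.17 and -1.51. All 3 were negative and array 2 was closest to 0, with a mean of -0.96 ± 0.70. Stra6, the cell-surface receptor for this carrier, stood at 0.16 ± 0.24, or 0.030 without array 2 and 0.27 without array 3. Gut and liver markers had 7 of 10 means below 0, a median of -0.71 and a range from -2.24 to 0.87, with Ttr in that list too, and their part in the values of Rbp4 and Ttr was not tested.

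The enzymes between retinol and retinal went both ways, with 5 of 13 means positive. Adh1, an alcohol dehydrogenase that oxidises retinol and is abundant in liver, had -1.66, -1.31 and -1.46. The 3 arrays were close, with a mean of -1.48 ± 0.18, a 2.78-fold difference (limma adjusted p = 0.11). Adh7, another retinol-oxidising alcohol dehydrogenase, had 1.03, 0.80 and 0.55, a mean of 0.80 ± 0.24. Dhrs3, a reductase that turns retinal back to retinol and is induced by retinoic acid, had 0.63, 0.67 and 0.36, a mean of 0.55 ± 0.17. Adh7 and Dhrs3 were positive on every array. Rdh10, the embryo's main retinol dehydrogenase, had arrays of both signs and a mean of -0.35 ± 0.38, or -0.57 without array 2 and -0.23 without array 3.

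RXR proteins are the partners of the receptors, and all 3 genes had arrays of both signs. Rxra stood at -0.33 ± 0.61, which rested on -1.01 on array 1 and was 0.013 without it. Rxrb stood at 0.15 ± 0.40 (-0.00099 without array 1) and Rxrg at -0.37 ± 0.49 (-0.18 without array 1 and -0.65 without array 3). Fabp5, a fatty acid-binding protein that also carries retinoic acid, stood at 0.35 ± 0.29, or 0.19 without array 1, and was positive on every array.

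Coregulators, through which receptors silence or activate their targets, had 2 of 9 means positive and a median of -0.074, which was 0.0040 without array 1 and -0.17 without array 2. Med1, the Mediator subunit that contacts nuclear receptors, had 1.67, 1.04 and 1.78. All 3 were well above 0, with a mean of 1.50 ± 0.40, a 2.82-fold difference (95% limma interval 0.93 to 2.06; limma adjusted p = 0.11). Ncoa1, a coactivator, stood at 0.35 ± 0.17 and was positive throughout, and Ep300, a histone acetyltransferase, had arrays of both signs and a mean of -0.72 ± 0.80, or -0.42 without array 1 and -1.18 without array 3.

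Genes described as induced by or dependent on retinoic acid had 10 of 17 means positive and a median of 0.024. That median was 0.11 without array 1, 0.17 without array 2 and -0.056 without array 3, so its sign is not settled. The anterior Hox genes Hoxd4 and Hoxb4 are classical targets. Hoxd4 had 0.65, 0.62 and 0.78, a mean of 0.68 ± 0.087. Hoxb4 had 1.02, 0.32 and 0.42, a mean of 0.59 ± 0.38, and without array 1 it was 0.37. Both were positive on every array.

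Meis2, a homeobox gene induced by retinoic acid and also a stromal marker, had 0.48, 0.86 and 0.98, a mean of 0.77 ± 0.26. Rai1, named for its induction by retinoic acid in cultured cells, had -0.76, -0.92 and -0.80, a mean of -0.83 ± 0.080. Its 3 arrays were close and on the side of Crabp2. Ret, whose RNA in the bud tip depends on stromal retinoic acid, had arrays of both signs and a mean of -0.19 ± 0.26, or -0.11 without array 1, -0.12 without array 2 and -0.34 without array 3. Ureteric bud and collecting duct genes as a list, with Ret among them, had 8 of 11 means above 0, a median of 0.13 and a range from -1.03 to 1.54.

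**Figure D5:**
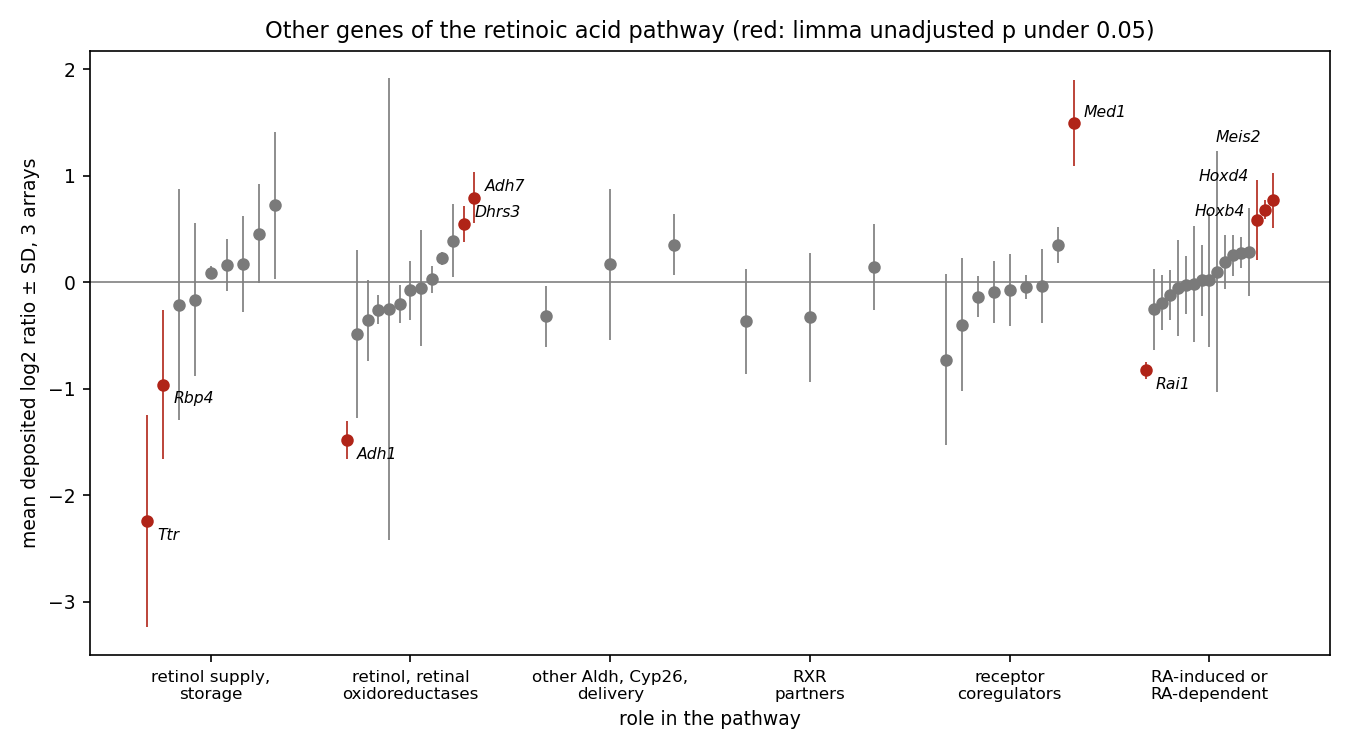
Mean log2 ratio with SD over the 3 arrays (y axis) of 54 other pathway genes, grouped by role (x axis) and ordered by mean within each role; the 10 genes at an unadjusted limma p under 0.05 are red and named. Ttr, at -2.24, and Med1, at 1.50, are the lowest and the highest.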

How the data were processed

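Total RNA from 13.5 dpc kidney and 10.5 dpc metanephric mesenchyme was compared on 3 Compugen mouse oligo arrays with 2 colours. Images were read with ImaGene 5.5, and the authors applied print-tip loess and a normalization between arrays, per the labels; a lowess fit on 20% of the data per point, with control values under 10 raised to 10, is named too. The deposited values are log2 ratios of the channels (the base was taken from the lowest ratio, 0.01). A dye swap is mentioned without its array, and no sign was turned. As deposited, genes with large ratios such as Hbb-bh1 (-3.88, -3.66 and -4.30) and Cdh16 (3.62, 2.75 and 3.54) had the same sign on arrays 1, 2 and 3. Of 22702 spots, 883 controls and blanks were left out, and 21094 of 21819 library oligos had a value on all arrays. Oligos with 1 symbol were averaged per symbol, giving 14746 named genes, tested with 4889 unnamed oligos. A two-sided moderated test of each mean ratio against 0 used lmFit and eBayes of limma 3.58.1 (R 4.3.3). The p-values were adjusted by Benjamini-Hochberg across 19635 genes, at a threshold of 0.05. The fit was also run on simulated data. The planted changes there were larger than any member's mean, so changes of the members' size were not covered. Intensities were not used here, so dim or saturated spots could not be examined, and loess hides a shift common to most genes. RNA amplification can alter single ratios. No pair of arrays held identical values throughout (at most 0.14% of oligos).

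The members and lists were chosen with earlier results of these data known. All members were named; of the other pathway genes, those at an unadjusted p under 0.05 with one sign were given array by array, and the rest by counts. Outside that rule, Cyp26a1 was given array by array and 9 others by their means, chosen for their roles after their values were seen. Upstream sequences are from RefSeq, build GRCm38.p6. Alternatives covered oligos, array centring, scaling, quantile normalization, weights, a robust fit, missing values and each array left out.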

Additional observations from a re-analysis of the deposited data

How the results depend on the processing

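Crabp2, Crabp1, Rarg and the 3 Aldh1a genes each kept their sign under all alternatives with averaged oligos, and no member passed the adjusted limma test in any. At most 1 of all genes passed it in any alternative, so this says little about the members. Single oligos turned the sign of Rara (0.054, 0.35 and 0.29), Rarb (-0.10) and Rarg (-0.0065 and -0.25). With 1 array left out, Aldh1a1 ranged from 0.27 to 0.70, Aldh1a2 from 0.060 to 0.18, Rara from -0.20 to 0.050, Rarb from -0.16 to 0.44, Rxra from -0.56 to 0.013, Rxrb from -0.00099 to 0.38, Rara minus Rarb from -0.64 to 0.21, Aldh1a1 minus Aldh1a3 from -0.36 to 0.24 and Rarb minus Rarg from -0.33 to 0.34. In the same fits the median of the receptors ranged from 0.050 to 0.097, that of all members from 0.11 to 0.22, of the coregulators from -0.17 to 0.0040, of the induced or dependent genes from -0.056 to 0.17 (-0.089 with array weights), of all other pathway genes from -0.040 to 0.037, of retinol supply from 0.030 to 0.19 and of the oxidoreductases from -0.20 to 0.067; with array weights the last 3 were -0.015, 0.037 and 0.020. Over all genes, 1 passed limma, on the negative side, and 0 passed with centred and scaled arrays or with any 1 array left out; at an unadjusted p under 0.05 the positive genes then ranged from 860 to 2104 and the negative from 826 to 1825. The cause of these changes was not tested, beyond the fewer arrays of such fits. No paired analysis was possible because all arrays belong to 1 group. Signal over background was not available to set a limit on dim oligos.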
